A study of Mus musculus with 6 samples.

Results

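Voltage-gated calcium channels and their alpha2delta subunits were examined in mouse dorsal root ganglia (DRG), where the cell bodies of sensory neurons lie. The set holds 10 genes, chosen by name: the pore genes Cacna1a, Cacna1b, Cacna1c, Cacna1d, Cacna1e, Cacna1h and Cacna1i, and the alpha2delta genes Cacna2d1, Cacna2d2 and Cacna2d3. All 10 were found among the 54242 gene symbols measured, and they account for 126 of the 140992 transcripts. The fasted group was 3 libraries from mice on an intermittent fasting diet for 10 days. The fed group was 3 libraries from mice that ate ad libitum. Both groups were male C57bl/6 mice, 8 to 10 weeks old, with no transgene or injury named in the labels, and the lumbar ganglia L4 to L6 were taken. The labels say that the mice were sacrificed after 24 hours, without saying what the 24 hours follow. They do not say whether a replicate is 1 mouse or a pool, so p-values measure only the spread among these libraries, in which technical error may have a part.

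A voltage-gated calcium channel is built around an alpha1 protein, which forms the pore, senses voltage and gives the channel its current type. An intracellular beta subunit and an extracellular, membrane-anchored alpha2delta subunit bring the pore to the surface and adjust its gating. In sensory neurons, N- and P/Q-type channels open at the axon terminal and trigger transmitter release, L- and R-type channels pass calcium at strong depolarisation, and T-type channels open near the resting potential and shape firing. The alpha2delta-1 protein is the binding site of gabapentin and pregabalin, and alpha2delta-2, the product of Cacna2d2, is known as a brake on axon growth in adult sensory neurons. The title of the series concerns axon regeneration, and the comparison here asks whether fasting shifted the RNA of these channels.

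Values are TPM (transcripts of a library scaled to a sum of 1000000), deposited per transcript and summed per gene. They allow for transcript length, so levels of different genes can be set side by side. TPM keep no read number, so the depth behind a value is unknown and no counting interval can be given. In such bulk samples, fewer cells of a type and less RNA per cell cannot be told apart. The 14 neuronal markers summed to between 21790 and 22860 TPM in the fasted libraries and between 19850 and 21990 TPM in the fed libraries, and 13 of the 14 had a higher mean in fasted libraries. Marker RNA of other cell types was present too. None of the lists of markers for glia, vessels, blood, macrophages, fibroblasts or muscle held a gene at 0 in every library. This does not tell intact cells from stray RNA. Macrophage marker sums were lower in fasted libraries, at 54.9 to 70.0 TPM against 82.1 to 101 TPM in fed libraries, as were endothelial ones at 181.2 to 198.1 against 211.7 to 253.1 TPM, and haemoglobin and other red cell markers were higher, at 1715 to 3277 against 1284 to 1564 TPM. These sums describe what passed the enrichment for neurons, not whole ganglia, and their part in the results was not tested. Fed replicate 2 stood apart, with 4205 TPM over 12 skeletal muscle markers. The same markers summed to 270.5 to 560.3 TPM in the fasted libraries and to 492.0 and 619.4 TPM in the other fed libraries. These sums include Pvalb, which is also on the list of markers of large A-fibre neurons. Pvalb alone stood at 201.3, 197.4 and 234.9 TPM in fasted libraries, against 214.9, 542.9 and 230.3 TPM in fed libraries.

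In the fasted and fed libraries alike, the alpha2delta-1 gene was the most abundant member and the R-type pore gene the least. Averaged over the 6 libraries, Cacna2d1 stood at 93.3 TPM, Cacna2d3 at 54.0 TPM, Cacna1b at 50.5 TPM and Cacna1a at 29.9 TPM. Cacna1h followed at 20.2 TPM, Cacna2d2 at 15.4 TPM and Cacna1c at 12.7 TPM. Cacna1i at 3.47 TPM, Cacna1d at 3.35 TPM and Cacna1e at 1.46 TPM were the lowest. Neighbours in this order had separate ranges over the 6 libraries, with 2 exceptions. Cacna2d3 lay above Cacna1b in 5 of 6 libraries, and Cacna1i above Cacna1d in 4 of 6. Of the Cacna2d3 level, 38.3% lay in Cacna2d3-205, which is typed as non-stop decay. The coding Cacna2d3-201 averaged 33.0 TPM. With transcripts under 1000 bases left out, Cacna1h ran from 14.2 to 16.5 TPM and overlapped Cacna2d2, at 14.3 to 15.7 TPM.

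**Figure D1:**
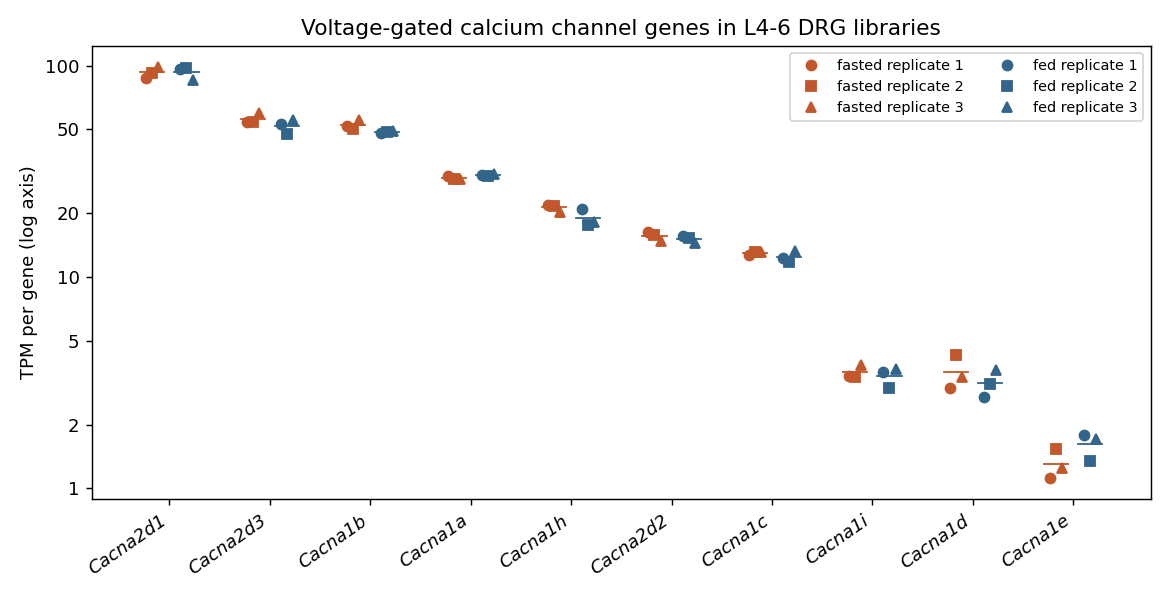
TPM per gene on a log axis for the 10 members, ordered by mean level, with fasted libraries in orange left of fed libraries in blue. Each point is 1 library and each line a group mean (n = 3 each). Levels span Cacna2d1 at 85.8 to 99.2 TPM down to Cacna1e at 1.11 to 1.79 TPM, and Cacna1b is the member whose fasted points all lie above its fed points.

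No member passed the test for a change with fasting: 0 of 10 reached an adjusted p of 0.05 (limma, Benjamini-Hochberg over the 15097 genes that averaged 1 TPM or more). The background is close to that, since 1 of the 15097 genes passed (0.00662%). That gene was Gm23257, which is outside the channel family and was named after its values were seen. No member had an unadjusted p under 0.05, against 9.94% of all genes tested. Of the 10 members, 7 were higher and 3 lower in fasted libraries. Their median log2 fold change, on the log2(TPM + 1) scale used throughout, was 0.05, and the median of all genes was 0.03. In all, 62.5% of the genes tested were higher in fasted libraries, so a majority of positive values is the background of the table. The widest 95% interval of a member ran from -0.20 to 0.45 (Cacna1d) and the narrowest from -0.14 to 0.05 (Cacna1a).

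**Figure D2:**
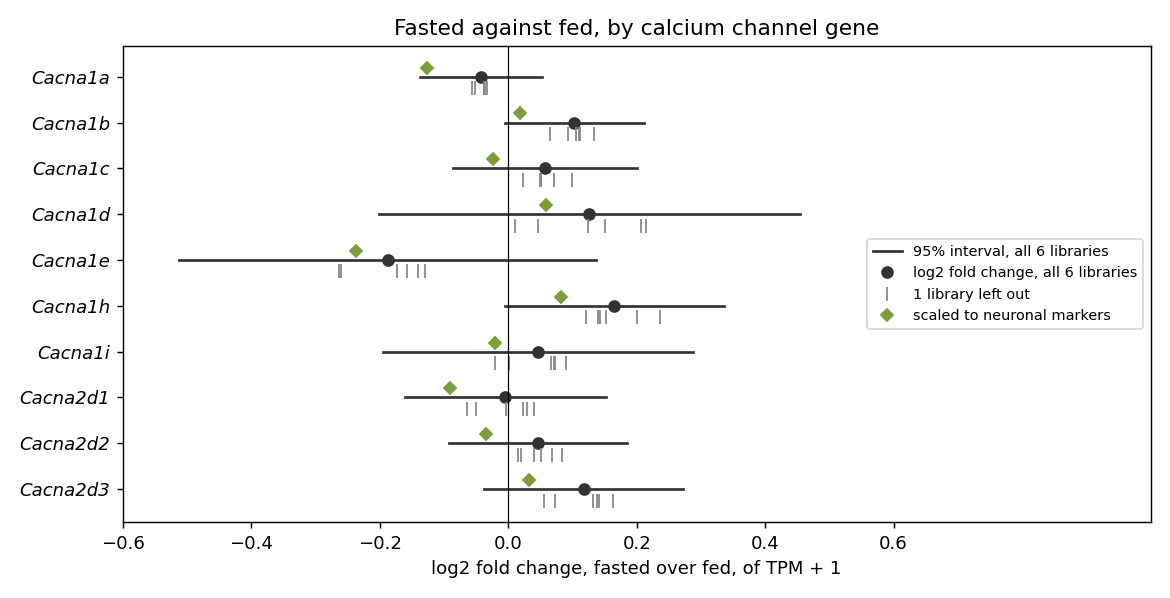
Log2 fold change of TPM + 1, fasted over fed, for each member. Black points and lines are the estimate from all 6 libraries with its 95% interval (limma), grey ticks the estimates with 1 library left out, and green diamonds the estimate after scaling each library to its neuronal markers. Every 95% interval includes 0, and the neuronal scaling moves all 10 estimates down, Cacna1b to 0.02 among them.

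Before the values by gene, stretches from deposited transcripts of 4 members are shown, to which the isoform values given further on refer. The transcripts differ at other places as well, so these stretches alone do not set the isoform shares. For Cacna1h the stretch is the same in both transcripts. All stretches were read from the GENCODE M21 transcripts (GRCm38), 5′ to 3′ along the gene.

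Cacna1b, which codes for the N-type pore, has a pair of neighbouring exons of 97 bases, known as exons 37a and 37b, of which a transcript uses one or the other; the upstream one is known from rat for its enrichment in nociceptors. They lie on the minus strand of chromosome 2, upstream at chr2:24626823-24626919 and downstream at chr2:24625238-24625334. Capitals mark the 40 of 97 positions at which the pair differs.
Cacna1b upstream exon: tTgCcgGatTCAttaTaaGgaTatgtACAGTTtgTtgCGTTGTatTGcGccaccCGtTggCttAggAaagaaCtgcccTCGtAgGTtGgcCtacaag
Cacna1b downstream exon: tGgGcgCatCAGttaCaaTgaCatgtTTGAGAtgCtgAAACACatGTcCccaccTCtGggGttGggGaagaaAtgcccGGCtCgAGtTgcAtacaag

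Cacna1c, which codes for the L-type pore Cav1.2, has 3 such pairs that separate its main deposited transcripts, of 60, 84 and 104 bases. The pair of 104 bases is shown. It lies on the minus strand, at chr6:118742265-118742368 in Cacna1c-207 and at chr6:118741871-118741974 in Cacna1c-216, and capitals mark the 32 positions that differ.
Cacna1c-207 exon: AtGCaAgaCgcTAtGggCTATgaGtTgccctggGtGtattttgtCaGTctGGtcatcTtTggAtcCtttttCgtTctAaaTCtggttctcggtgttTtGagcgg
Cacna1c-216 exon: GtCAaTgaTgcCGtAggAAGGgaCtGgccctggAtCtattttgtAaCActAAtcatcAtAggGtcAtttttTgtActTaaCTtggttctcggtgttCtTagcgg

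Cacna2d1 is spliced in 3 ways between the same flanks on the plus strand, within chr5:16340769-16342697. Capitals mark 21 coding bases that Cacna2d1-202 lacks. In Cacna2d1-205 they come from a microexon of 9 bases and from 4 and 8 bases of the exons on either side, and in Cacna2d1-203 from an exon of its own at chr5:16341990-16342010.
Cacna2d1-205: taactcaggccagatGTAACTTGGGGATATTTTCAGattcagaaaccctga
Cacna2d1-202: taactcaggccagatattcagaaaccctga
Cacna2d1-203: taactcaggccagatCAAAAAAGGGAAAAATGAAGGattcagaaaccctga

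Cacna1h, which codes for the T-type pore Cav3.2, is shown because its leading transcripts read the same across the only splice junction at which their annotations differ, on the minus strand within chr17:25378836-25380244. Capitals mark the 4 bases that the annotation places before the intron in one transcript and after it in the other.
Cacna1h-205: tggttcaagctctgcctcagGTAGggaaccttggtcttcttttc
Cacna1h-201: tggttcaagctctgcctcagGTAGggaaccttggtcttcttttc

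Among the presynaptic pores, Cacna1b (chr2:24603887-24763152, minus strand), the N-type channel that ziconotide blocks, stood at 51.7, 50.1 and 55.2 TPM in fasted libraries, against 48.0, 48.8 and 49.1 TPM in fed libraries. All 3 fasted values lay above all 3 fed values, and Cacna1b was the only member without overlap. Of all genes tested, 12.7% lay above without overlap and 17.8% lacked overlap in either direction, so 1 of 10 is no more than the background. The means were 52.3 ± 2.62 TPM fasted and 48.6 ± 0.58 TPM fed (SD, n = 3 each), a log2 fold change of 0.10 with a standard error of 0.046 (limma, adjusted p = 0.51). The interval of the difference ran from -0.33% to 15.8% on the TPM + 1 scale. Scaled to the neuronal markers, the log2 fold change was 0.02. Cacna1a (chr8:84388440-84640246, plus strand), the P/Q-type pore, differed little. It stood at 30.1, 29.3 and 29.1 TPM in fasted libraries, against 30.6, 30.0 and 30.6 TPM in fed libraries, and the groups overlapped only in that fasted replicate 1 lay just above fed replicate 2. Fasting over feeding gave a log2 fold change of -0.04 (standard error 0.041, limma, adjusted p = 0.70).

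The N-type gene thus made up 41.5 ± 1.75% of the TPM of the 10 pore genes of mouse in fasted libraries and 39.7 ± 0.51% in fed libraries (SD, n = 3 each). P/Q-type made up 23.4 ± 0.64% fasted and 24.8 ± 0.65% fed, T-type 20.4 ± 0.92% and 18.9 ± 1.68%, and R-type 1.03 ± 0.17% and 1.32 ± 0.21%. The ranges of fasted and fed shares overlapped for each current type. These shares count transcripts under 1000 bases, which held 30.4% of Cacna1b, 24.5% of Cacna1h, 12.2% of Cacna1e and 9.28% of Cacna1a. The sum over the 10 pore genes, which includes Cacna1f, Cacna1g and Cacna1s, was 124.9, 125.6 and 127.3 TPM in fasted libraries, against 120.9, 124.5 and 122.0 TPM in fed libraries. These sums did not overlap, by a margin smaller than the spread within either group, and 7.74 TPM of the sum in fed replicate 2 was the muscle gene Cacna1s.

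The L-type pores were present at lower level and overlapped between the diets. Cacna1c (chr6:118587240-119196418, minus strand), also the main calcium channel of heart and smooth muscle, stood at 12.7, 13.1 and 13.2 TPM in fasted libraries, against 12.3, 11.8 and 13.3 TPM in fed libraries. Its highest value was in a fed library, and its log2 fold change was 0.06 (standard error 0.061; limma, adjusted p = 0.73). The 10 smooth muscle and pericyte markers summed to 150.0 to 194.9 TPM in fasted libraries and 184.4 to 217.1 TPM in fed libraries, and their part in the Cacna1c level was not tested. Cacna1d (chr14:30039939-30491455, minus strand), the Cav1.3 pore that opens at lower voltage than Cav1.2, stood at 2.99, 4.30 and 3.36 TPM in fasted libraries, against 2.71, 3.13 and 3.64 TPM in fed libraries. Its fold change of 0.13 fell to 0.01 without fasted replicate 2, and was 0.06 when scaled to the neuronal markers.

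The R-type pore gene Cacna1e (chr1:154390731-154884501, minus strand), which codes for Cav2.3, stood at 1.11, 1.54 and 1.25 TPM in fasted libraries, against 1.79, 1.35 and 1.72 TPM in fed libraries. Its log2 fold change of -0.19 was the largest of the 10 in size, with a standard error of 0.139 (limma, adjusted p = 0.63). The whole of that difference lay in 1 short transcript. Cacna1e-208, of 331 bases, was listed at 0 in all 3 fasted libraries and in fed replicate 2, and at 0.48 and 0.59 TPM in fed replicates 1 and 3. Without it, Cacna1e stood at 1.11, 1.54 and 1.25 TPM in fasted libraries, against 1.31, 1.35 and 1.13 TPM in fed libraries, and the log2 fold change was 0.02.

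Of the T-type pores, Cacna1h (chr17:25374285-25433783, minus strand), whose channel Cav3.2 is prominent in low-threshold mechanoreceptors, had the largest positive fold change. It stood at 22.1, 21.8 and 20.3 TPM in fasted libraries, against 20.96, 17.7 and 18.2 TPM in fed libraries. Fed replicate 1 lay above fasted replicate 3, so the groups overlapped. The means were 21.4 ± 0.96 TPM fasted and 19.0 ± 1.74 TPM fed (SD, n = 3 each), a log2 fold change of 0.17 with a standard error of 0.073 (limma, adjusted p = 0.51), and the interval ran from -0.36% to 26.2%. Markers of the A-delta low-threshold mechanoreceptors moved the same way: the 4 summed to 115.5 to 118.6 TPM in fasted libraries and 104.7 to 116.7 TPM in fed libraries, with 4 of 4 higher on average. The 4 C low-threshold markers were also all higher, at 152.6 to 174.3 TPM fasted and 131.9 to 156.1 TPM fed. So were 13 of 14 neuronal markers and 62.5% of all genes tested. Other sensory neuron lists were mixed. Higher were 6 of 8 large A-fibre, 4 of 6 peptidergic, 3 of 5 non-peptidergic and 2 of 5 Nppb and Sst pruriceptor markers. The part of these markers in the Cacna1h value was not tested. With transcripts under 1000 bases left out, which removed 24.5% of its TPM, the log2 fold change of Cacna1h was 0.07, and scaled to the neuronal markers it was 0.08. Cacna1i (chr15:80287238-80398279, plus strand), the Cav3.3 pore, stood at 3.42, 3.37 and 3.84 TPM in fasted libraries, against 3.55, 3.0 and 3.66 TPM in fed libraries. Its values overlapped, and its log2 fold change of 0.05 was -0.02 without fed replicate 2.

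The alpha2delta genes, whose products raise the number of channels at the terminal, overlapped between the diets. Cacna2d1 (chr5:15934691-16374511, plus strand) stood at 87.4, 92.9 and 99.2 TPM in fasted libraries, against 96.9, 97.8 and 85.8 TPM in fed libraries. Both the highest value and the lowest but one were fasted. The means were 93.2 ± 5.93 TPM fasted and 93.5 ± 6.70 TPM fed (SD, n = 3 each), a log2 fold change of -0.0042 with a standard error of 0.067 (limma, adjusted p = 0.98). The interval ran from -10.5% to 11.1%. Without fasted replicate 1, fed replicate 1 or fed replicate 2 its sign turned, within -0.06 to 0.04 over all libraries left out.

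Cacna2d2 (chr9:107399612-107529343, plus strand) stood at 16.4, 15.8 and 14.8 TPM in fasted libraries, against 15.7, 15.3 and 14.6 TPM in fed libraries. The groups overlapped, with a log2 fold change of 0.05, a standard error of 0.059 and an interval from -6.21% to 13.7% (limma, adjusted p = 0.78). Cacna2d3 (chr14:28904943-29721864, minus strand), known for a role in heat pain in fly and mouse, stood at 54.5, 54.3 and 59.8 TPM in fasted libraries, against 52.8, 47.4 and 55.1 TPM in fed libraries. Fed replicate 3 lay within the fasted values, and the log2 fold change was 0.12, its standard error 0.066 (limma, adjusted p = 0.54). The log2 fold change of Cacna2d3 was 0.06 without fed replicate 2, and 0.03 with all libraries scaled to the neuronal markers. Cacna2d1 held 56.4 ± 1.04% of the alpha2delta TPM in fasted and 58.2 ± 2.89% in fed libraries. Cacna2d3 held 34.0 ± 0.65% and 32.3 ± 2.98%, and Cacna2d2 9.53 ± 0.93% and 9.44 ± 0.069%, fasted and fed in turn. The summed alpha2delta TPM was 1.31 ± 0.050 times that of the 10 pore genes in fasted and 1.31 ± 0.049 times in fed libraries (SD, n = 3 each). Transcripts under 1000 bases are counted in these sums. They held 30.4% of Cacna1b and 24.5% of Cacna1h but 0.28% of Cacna2d1 and 0.52% of Cacna2d3. A further 38.3% of Cacna2d3 lay in Cacna2d3-205, a non-stop decay form of 1458 bases, which is also counted. The ratio was not computed without the short transcripts or without Cacna2d3-205.

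At the level of transcripts, 28 of the 126 deposited for the 10 genes had a mean of at least 1 TPM and were tested. Of these, 0 passed an adjusted p of 0.05 over the 33197 transcripts tested, of which 0.0271% passed, and 0 had an unadjusted p under 0.05, against a background of 7.21%. The smallest adjusted p of a member transcript was 0.68 (limma). A further 38 were listed at 0 in all 6 libraries. The 24 transcripts that held at least 10% of their gene are described here by TPM or by their share of the gene's TPM. Such a share does not depend on the scaling of a library. For 2 of the 24 the shares did not overlap between the diets, against 10.6% of all transcripts of that kind in the table.

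**Figure D3:**
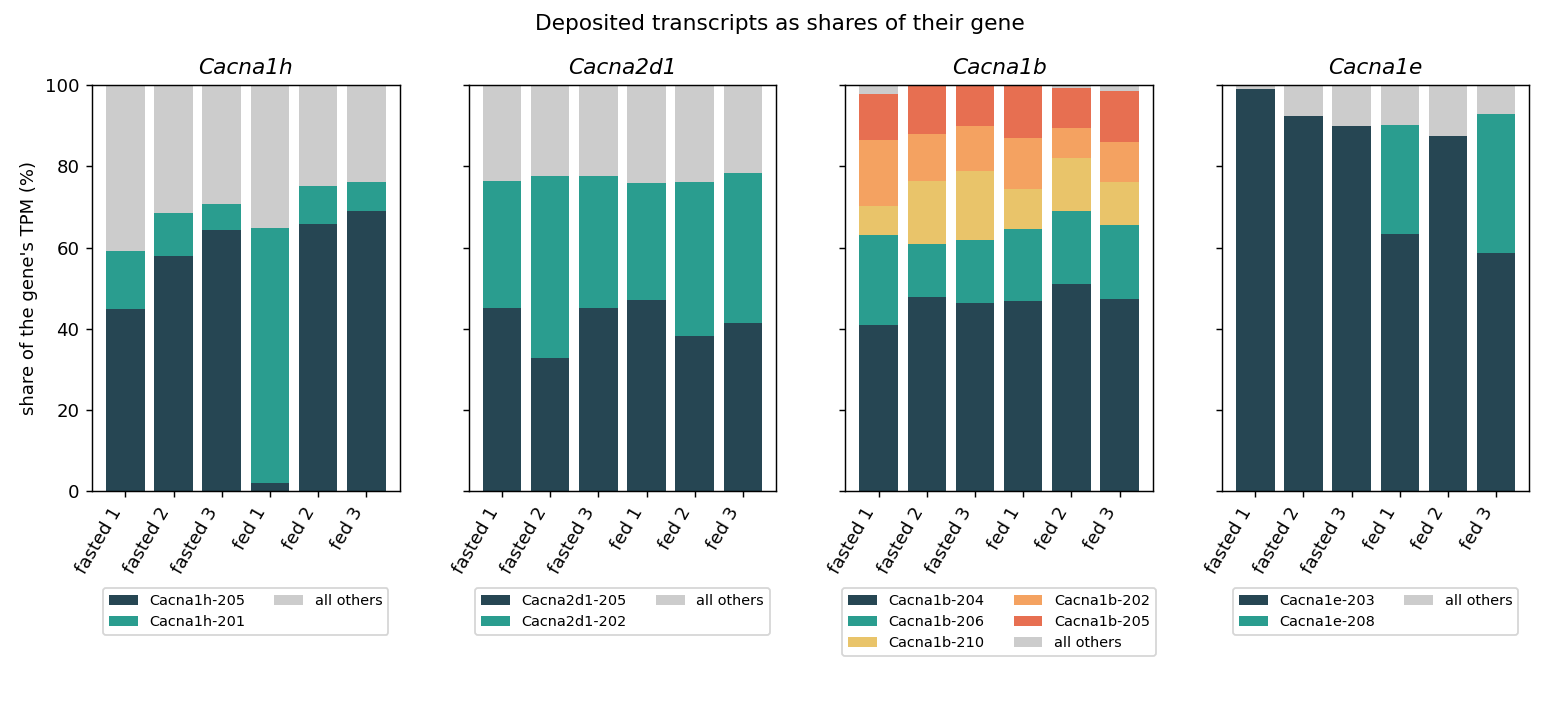
Share of each gene's TPM in percent, per library, for the transcripts of Cacna1h, Cacna2d1, Cacna1b and Cacna1e with at least 10% of the gene; fasted libraries stand left of fed libraries, and grey is the rest. In Cacna1h, fed replicate 1 gives 62.7% to Cacna1h-201, which holds 6.5% to 14.3% in the other libraries; in Cacna1e, Cacna1e-208 is seen in fed replicates 1 and 3 alone.

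Cacna1c-207 held 76.5%, 77.9% and 77.4% of Cacna1c in fasted libraries, against 73.4%, 76.2% and 69.0% in fed libraries. All fasted shares lay above the fed ones (exact permutation test, two-sided, p = 0.1, the smallest that 3 against 3 libraries can give). Cacna1c-216, with the other exon of each pair, did not mirror this: it held 19.5%, 14.8% and 22.0% in fasted libraries, against 21.2%, 14.8% and 22.1% in fed libraries. The other transcript without overlap was Cacna1e-203, at 99.1%, 92.3% and 89.9% in fasted libraries, against 63.4%, 87.4% and 58.7% in fed libraries (exact permutation test, p = 0.1). In TPM it was level, at 1.10, 1.42 and 1.12 in fasted libraries, against 1.13, 1.18 and 1.01 in fed libraries.

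The largest swing of any isoform was in Cacna1h and rests on 1 library. Cacna1h-205 stood at 9.87, 12.6 and 13.0 TPM in fasted libraries, against 0.44, 11.6 and 12.6 TPM in fed libraries. Cacna1h-201 stood at 3.15, 2.34 and 1.32 TPM in fasted libraries, against 13.1, 1.68 and 1.28 TPM in fed libraries. Fed replicate 1 thus had the order of the pair turned round. The spliced sequence of Cacna1h-205 begins with the whole of Cacna1h-201 and adds 10 bases at its 3′ end. The coding sequence of 7077 bases is identical, and the junction shown above reads the same in both. Of the 8200 stretches of 31 bases in Cacna1h-205, 3 occur in no other annotated transcript of the gene, and Cacna1h-201 has 0 of its own. Taken as 1, the pair stood at 13.0, 14.9 and 14.3 TPM in fasted libraries, against 13.6, 13.3 and 13.9 TPM in fed libraries, with no sign of the swing.

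Cacna2d1-205, with the microexon shown above, stood at 39.5, 30.5 and 44.9 TPM in fasted libraries, against 45.5, 37.4 and 35.5 TPM in fed libraries. Cacna2d1-202, without the 21 bases, stood at 27.3, 41.5 and 32.1 TPM in fasted libraries, against 28.0, 37.0 and 31.7 TPM in fed libraries. Which of the pair was higher varied within the fasted group, since fasted replicate 2 alone had more of the form without the insert. Cacna2d1-203, with the separate exon of 21 bases, held less than 10% of the gene on average and was named after its values were seen; it stood at 9.05, 7.84 and 8.98 TPM in fasted libraries, against 8.95, 9.57 and 8.43 TPM in fed libraries. Together these transcripts held 86.4 ± 0.40% of Cacna2d1 in fasted and 86.4 ± 1.55% in fed libraries. Neither Cacna2d1-202 nor Cacna2d1-203 has a stretch of 31 bases of its own, so the split among them may be poorly resolved.

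For Cacna1b, the upstream exon shown above occurs in 1 annotated transcript, Cacna1b-210, a fragment of 332 bases and 3 exons. It stood at 3.63, 7.75 and 9.44 TPM in fasted libraries, against 4.64, 6.30 and 5.22 TPM in fed libraries. The fasted values lay on both sides of the fed ones, and the share of the gene was 13.2 ± 5.4% fasted and 11.1 ± 1.66% fed. The downstream exon occurs in 5 transcripts, led by Cacna1b-204, which held 45.1 ± 3.59% of the gene in fasted and 48.4 ± 2.35% in fed libraries. Because the upstream exon is annotated in a fragment only, these values do not measure the ratio of the exons in full-length RNA. Cacna1b-206, of 308 bases, held 16.9 ± 4.65% fasted and 18.0 ± 0.17% fed. Cacna1b-202 held 13.0 ± 2.89% and 9.95 ± 2.61%, fasted and fed (log2 fold change 0.42, limma, adjusted p = 0.68). Cacna1b-205 held 11.0 ± 0.90% and 11.8 ± 1.76%. In all, 30.4% of the Cacna1b TPM lay in 5 transcripts under 1000 bases. Without them Cacna1b stood at 35.5, 35.6 and 37.2 TPM in fasted libraries, against 34.8, 33.3 and 34.2 TPM in fed libraries, still without overlap.

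In the remaining members 1 or a few transcripts led. Cacna1a-201 held 69.7 ± 3.68% of Cacna1a in fasted and 71.5 ± 1.57% in fed libraries, and ENSMUST00000238337.1 held 14.0 ± 3.87% and 13.3 ± 1.91%. Cacna1i-202 held 89.2 ± 8.24% and 91.0 ± 6.5% of Cacna1i, fasted and fed. Cacna2d2 was divided between Cacna2d2-202 (45.7 ± 2.34% fasted, 43.5 ± 2.03% fed), Cacna2d2-208 (28.2 ± 5.67% and 29.7 ± 2.25%) and Cacna2d2-205 (19.8 ± 4.23% and 19.5 ± 4.98%), none of which has a stretch of 31 bases that the others of the gene lack. Of Cacna2d3, 38.3% over the 6 libraries was given to Cacna2d3-205, which the annotation types as non-stop decay, and 61.2% to the coding Cacna2d3-201. Their log2 fold changes were 0.20 for Cacna2d3-205 and 0.06 for Cacna2d3-201 (limma, adjusted p = 0.69 and 0.85). In Cacna1d no transcript led in every library. Cacna1d-212, a retained-intron form, held 31.5 ± 9.73% in fasted and 26.2 ± 8.78% in fed libraries. ENSMUST00000224785.2 held 21.5 ± 12.7% and 17.4 ± 15.2%, and ENSMUST00000238568.1 16.8 ± 3.52% and 21.3 ± 1.96%, fasted and fed in turn. In all, 56.1% of the Cacna1d TPM lay in transcripts outside GENCODE M21, these 2 among them, whose types are not known here.

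The rest of the channel complex followed the same picture. Of 98 other genes of the complex, its regulators, partners and effectors, 91 were tested and 0 passed (limma, smallest adjusted p = 0.42). Of the 91, 72 were higher and 19 lower in fasted libraries, where 62.5% of all genes were higher. Their median was 0.04 on the log2 scale, against 0.03 over all genes, and 9 of the 91 had an unadjusted p under 0.05, near the 9.94% of all genes. Without overlap, 15 of the 91 lay above and 3 below, where 12.7% and 5.07% of all genes did. Most genes named below had the smallest p of their list, which favours such separation. The beta subunits, which hold the pore at the membrane, were led by Cacnb3, at 262.4 ± 8.69 TPM fasted and 265.0 ± 11.0 TPM fed (SD, n = 3 each). Cacnb4 was at 74.8 ± 7.86 TPM fasted and 69.5 ± 3.27 TPM fed, Cacnb1 at 42.3 ± 1.31 and 41.7 ± 1.12 TPM, and Cacnb2 at 6.38 ± 0.49 and 6.38 ± 0.65 TPM. Of these 4, 3 were higher and 1 lower, with fold changes from -0.01 to 0.10, and the small ones of Cacnb1 and Cacnb2 turned negative under other scalings. The summed beta TPM was 3.07 ± 0.13 times that of the pore genes fasted and 3.12 ± 0.10 times fed, short transcripts included.

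The gamma subunit family, most of whose members accompany AMPA receptors (TARPs), had 6 of 8 genes tested, 5 higher and 1 lower, and 0 passed. Cacng7 was the most abundant of those named, at 101.1 ± 4.20 TPM fasted and 96.8 ± 3.38 TPM fed. Cacng8 stood at 3.56, 3.26 and 3.46 TPM in fasted libraries, against 2.61, 2.95 and 2.52 TPM in fed libraries, without overlap (log2 fold change 0.26 ± 0.097 SE; limma, adjusted p = 0.49). Cacng5 also lay above without overlap, at 15.9 ± 0.56 TPM fasted and 14.5 ± 1.11 TPM fed, while Cacng2 overlapped at 11.6 ± 0.48 and 11.1 ± 0.33 TPM. Of all genes tested, 12.7% lay above without overlap.

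Of 17 channel regulators, 15 were tested, 12 higher and 3 lower, and 0 passed. Stac2, an adaptor that slows L-type inactivation, averaged 54.2 ± 1.92 TPM fasted and 49.4 ± 4.53 TPM fed, and Rem2, a small GTPase that inhibits the channels through beta, 19.9 ± 0.96 and 17.4 ± 3.20 TPM. All 15 presynaptic partners were tested, 13 higher and 2 lower, and 0 passed. Rimbp2, which ties the channel to the release site, stood at 25.1, 23.6 and 23.4 TPM in fasted libraries, against 21.7, 22.3 and 22.2 TPM in fed libraries, without overlap (log2 fold change 0.12; limma, adjusted p = 0.50). Scaled to the neuronal markers, the value of Rimbp2 was 0.04, and 12.7% of all genes lay above without overlap. The release proteins Snap25 (1789 ± 123.6 TPM fasted, 1620 ± 135.3 TPM fed) and Syt1 (131.2 ± 3.38 and 123.8 ± 8.70 TPM) overlapped. Snap25 is also on the list of neuronal markers.

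Of 9 ligands and partners of alpha2delta, 6 were higher and 3 lower, and 0 passed. Thbs4, a thrombospondin that binds alpha2delta-1, stood at 5.0, 5.51 and 5.60 TPM in fasted libraries, against 7.39, 6.70 and 5.94 TPM in fed libraries. The fasted values lay below the fed ones without overlap (log2 fold change -0.27 ± 0.094 SE; limma, adjusted p = 0.48), as did 5.07% of all genes. Grin1, the obligatory NMDA receptor subunit, averaged 76.3 ± 1.02 TPM fasted and 68.0 ± 7.02 TPM fed, and the neurexin gene Nrxn3 22.6 ± 0.27 and 21.3 ± 1.15 TPM. Among 15 genes of the G protein pathway that inhibits N-type channels, 14 were higher and 1 lower, and 0 passed. Gng4, a G protein gamma subunit, stood at 9.41, 10.9 and 11.0 TPM in fasted libraries, against 8.31, 8.59 and 8.80 TPM in fed libraries (log2 fold change 0.26 ± 0.076 SE; limma, adjusted p = 0.46). Gnai1 was at 124.1 ± 6.42 TPM fasted and 114.0 ± 6.47 TPM fed, Gnai3 at 58.2 ± 2.02 and 55.4 ± 1.35 TPM, and Gnb4 at 78.7 ± 3.71 and 74.2 ± 4.26 TPM. The neuronal markers, as given above, were also higher in fasted libraries, by 0.09 on average on the log2 scale, and their part in these values was not tested.

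The 4 pore and alpha2delta genes outside the set of 10 were low or marked 1 library. Cacna1f, the retinal L-type pore, did not exceed 0.023 TPM in any library. Cacna1g, a further T-type pore, stood at 0.52, 1.35 and 0.57 TPM in fasted libraries, against 0.54, 0.95 and 0.87 TPM in fed libraries, and Cacna2d4 did not exceed 0.28 TPM. Cacna1s, the pore of the skeletal muscle channel, stood at 0.27, 0.83 and 0.56 TPM in fasted libraries, against 0.44, 7.74 and 1.02 TPM in fed libraries (log2 fold change -0.94 ± 0.61 SE; limma, adjusted p = 0.58). Its high value was in fed replicate 2, the library with 4205 TPM of skeletal muscle markers, and without that library its mean was below the limit for testing. Stac3, an adaptor of the same muscle channel, stood at 0.67, 1.20 and 1.53 TPM in fasted libraries, against 1.67, 10.2 and 1.54 TPM in fed libraries, and its log2 fold change of -1.01 was -0.31 without fed replicate 2. Ryr1, Cacng1 and Cacng6, further genes of the muscle complex named after their values were seen, reached 8.28, 3.24 and 2.05 TPM in fed replicate 2 and at most 1.05, 0.65 and 0.57 TPM in any other library. Not all channel genes rose there. Cacnb1 and Cacna2d1 stood at 41.6 and 97.8 TPM in fed replicate 2, within the range of their other libraries. The L-type share of the pore TPM, of which Cacna1s is a part, was highest in fed replicate 2. It stood at 12.8%, 14.5% and 13.4% in fasted libraries, against 12.8%, 18.2% and 14.7% in fed libraries.

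**Figure D4:**
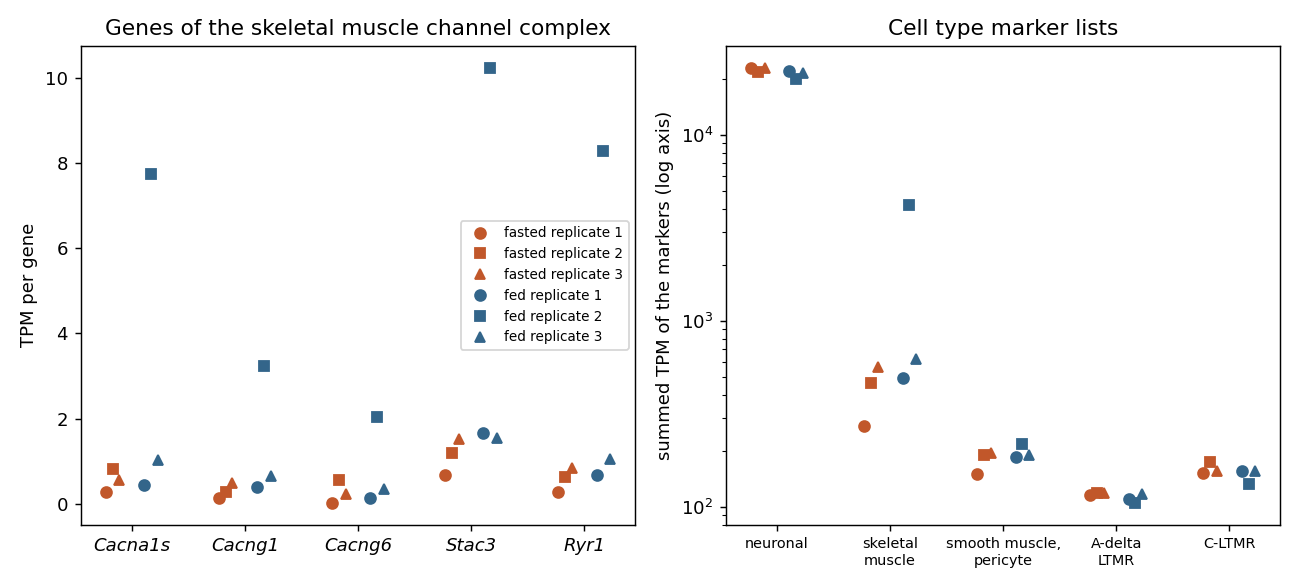
Left, TPM of Cacna1s, Cacng1, Cacng6, Stac3 and Ryr1 in each library. Right, summed TPM of marker lists on a log axis. Fasted libraries are in orange left of fed libraries in blue, with 1 point per library. Fed replicate 2 is alone in its high values of Cacna1s (7.74 TPM), Stac3 (10.2 TPM) and the skeletal muscle markers (4205 TPM), while the neuronal sums lie between 19850 and 22860 TPM.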

How the data were processed

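The authors deposited TPM for each transcript, from stranded mRNA libraries of neuron-enriched dissociated ganglia (Dispase II, collagenase and papain, then a 15% BSA gradient), per the labels' protocols. The submitters' processing notes name Salmon 1.6.0, DESeq2 1.34.0, Trim Galore 0.6.6 and FastQC 0.11.9, and the builds GRCm38 and mm10. Their roles and the annotation release are not given in the sources used here. Each library sums to 1000000 TPM, so depth is lost and TPM are shares: a rise of some RNAs lowers the others.

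TPM were summed per gene symbol, genes averaging 1 TPM or more kept (15097) and log2(TPM + 1) values tested with limma 3.58.1 in R 4.3.3 (group only, intensity trend, two-sided, Benjamini-Hochberg adjustment, threshold 0.05), which was also tested on simulated data. The pseudocount of 1 understates changes of low genes. Transcripts were tested alike, and shares by exact permutation tests. Coordinates and sequences came from GENCODE M21 (GRCm38), which held 109 of the 126 member transcripts; plots were made in matplotlib 3.10.9 under Python 3.11.15. Named were all members, transcripts with at least 10% of a member, the remaining pore, alpha2delta and beta genes, and the 4 genes of smallest p from each other list, of which 3 are not reported here. The members and lists were chosen with earlier results of these data known. Alternatives were other pseudocounts, filters, scalings and empirical Bayes settings, a replicate block, libraries left out and, chosen after seeing the data, members without transcripts under 1000 bases.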

Additional observations from a re-analysis of the deposited data

How the results depend on the processing

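Under all 18 alternatives for genes, 0 of the members that could be tested passed, and the smallest adjusted p of a member was 0.40 (limma, with neuronal marker scaling). The largest member log2 fold change in size over these settings was 0.30. The counts of passing genes in the wider channel lists and of passing member transcripts were 0 throughout. The count over all genes, 1, was 2 with a pseudocount of 0.1 or 0.5, 0 without a filter, and 1 to 7 with a library left out, highest without fed replicate 3. The count of transcripts with non-overlapping shares, 2, was 3 to 6 with a library left out, where fewer libraries make overlap less likely. The median of all genes ran from -0.05 to 0.04 over settings.

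Scaling to neuronal markers turned Cacna1c to -0.023, Cacna1i to -0.020, Cacna2d2 to -0.035, Cacng2 to -0.021, Cacng7 to -0.025, Syt1 to -0.0013, Gnai3 to -0.015, Gnb4 to -0.0016, Cacnb1 to -0.065 and Cacnb2 to -0.074. Cacnb1 was also -0.0063 under median-of-ratios scaling, -0.016 under quantile normalization and -0.012 without mitochondrial genes, and Cacnb2 -0.022 under median-of-ratios scaling and -0.027 without mitochondrial genes. Median-of-ratios scaling turned the transcripts ENSMUST00000238337.1 (of Cacna1a) to -0.0029, Cacna1b-204 to -0.018, Cacna1b-205 to -0.0060 and Cacna1c-216 to -0.0031. Without short transcripts Cacna1e was 0.02, since Cacna1e-208 is left out. The other turns were all of small positive values and came with a change of scaling. Apart from quantile normalization, these scalings apply a common factor to each library and so shift genes together. They are not separate changes of single genes, and no further cause was tested.

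With a library left out, signs turned within these ranges of log2 fold change: Cacna1i -0.021 to 0.090, Cacna2d1 -0.064 to 0.040, Cacnb1 -0.0006 to 0.043, Cacnb2 -0.054 to 0.070, Cacnb3 -0.042 to 0.018, ENSMUST00000238337.1 -0.18 to 0.13, Cacna1b-204 -0.057 to 0.072, Cacna1b-206 -0.20 to 0.16, Cacna1b-205 -0.095 to 0.074, Cacna1c-216 -0.14 to 0.12, Cacna1h-205 -0.041 to 1.58, Cacna1h-201 -0.95 to 0.36, Cacna1i-202 -0.038 to 0.099, Cacna2d1-205 -0.17 to 0.098, Cacna2d1-202 -0.11 to 0.18, Cacna2d2-208 -0.13 to 0.046 and Cacna2d2-205 -0.055 to 0.23. No label ties replicate numbers across diets, and deviations of same-numbered libraries correlated at 0.09, 0.11 and 0.07. With a replicate block, 0 members, 0 genes of the channel lists and 0 member transcripts passed, and 1 gene of the table did. Depth is unknown, so the precision of low genes such as Cacna1e cannot be given.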

Other observations

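Genes that remove, buffer and read out calcium downstream of the channels were counted in the same way. Of 26 tested, 19 were higher and 7 lower in fasted libraries, 7 lay above without overlap, 5 had an unadjusted p under 0.05, and 0 passed. Of all genes tested, 62.5% were higher, 12.7% lay above without overlap and 9.94% had an unadjusted p under 0.05. Atp2b4, a plasma membrane calcium pump, stood at 29.5, 34.1 and 30.2 TPM in fasted libraries, against 27.2, 24.6 and 25.9 TPM in fed libraries (log2 fold change 0.26 ± 0.067 SE; limma, adjusted p = 0.42). A second pump gene, Atp2b1, stood at 153.4, 154.6 and 166.1 TPM in fasted libraries, against 145.6, 137.7 and 145.3 TPM in fed libraries (log2 fold change 0.14; limma, adjusted p = 0.48). Camk2g, a calcium and calmodulin-dependent kinase gene, averaged 369.7 ± 8.12 TPM fasted and 336.6 ± 17.8 TPM fed (SD, n = 3 each). Calb1, a calcium buffer, averaged 42.9 ± 4.41 TPM fasted and 34.5 ± 5.35 TPM fed, again without overlap. Scaled to the neuronal markers, the log2 fold change of Atp2b4 was 0.18 and that of Atp2b1 0.06.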
